A study of Mus musculus with 16 samples.

Results

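Trp53, the mouse gene of the transcription factor p53, and 9 of its direct target genes (Mdm2, Ccng1, Sesn1, Zmat3, Phlda3, Eda2r, Aen, Plk2 and Trp53inp1) were followed across 4 genotypes of mouse mammary organoids, and Cdkn1a, the gene of p21, was set beside them. The genes were found by their symbols in the deposited count table, which holds 55487 gene identifiers. Each of the 10 symbols matched 1 identifier, and all 10 passed the filter on low counts that kept 24252 genes for testing. The question was whether Cdkn1a rises together with the other p53 genes.

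RNA was sequenced from 16 organoid samples, which are multicellular structures grown in culture. WT organoids (n = 3) came from normal breast. Organoids with a PIK3CA mutation (P, n = 4), with a HER2 mutation (H, n = 4) and with both (HP, the double mutant, n = 5) came from breast tumors. The series title names the changes as H1047R in PIK3CA, the catalytic subunit of a lipid kinase, and V777L in HER2, a receptor tyrosine kinase whose mouse gene is Erbb2. All organoids were grown with epidermal growth factor, N-acetyl-cysteine and medium conditioned with Rspo1 and Noggin. The age and strain of the mice, the promoter or Cre line behind each mutation, and whether replicates came from separate animals are not given in the sources used here, so p-values measure the spread between these samples, which may be technical. WT differs from the mutants in both genotype and tissue source, which cannot be told apart in any comparison with WT.

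p53 is held at a low level in unstressed cells because MDM2, the product of one of its own targets, marks it for destruction. Stress to DNA, and also sustained growth signals from oncogenes, can stabilise the protein, which then binds pairs of short half-sites near its targets and switches on genes for cell cycle arrest, repair, metabolism and death. p21 is the best known arrest target and inhibits cyclin-dependent kinases. Because p53 is controlled mostly at the level of its protein, the RNA level of Trp53 need not follow its activity, and gene counts show neither the protein nor the sequence of Trp53.

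RefSeq promoter windows (GRCm38.p6, 250 bases before to 50 after a start site) were found for 9 of these 11 genes, Zmat3 and Trp53inp1 being the others. They were searched on both strands for the p53 half-site, a degenerate motif of 10 bases, and at least 1 match lay in a window of 6 genes (Cdkn1a, Mdm2, Ccng1, Aen, Sesn1 and Trp53). Of all 32851 windows, 8.36% hold a match, so a single match is common. A pair of half-sites 0 to 13 bases apart is in 24 windows, 0.0731% of all, and one of them is the Cdkn1a window at start site 29090979. There the half-sites begin 73 and 51 bases before the start site with 12 bases between them. The Cdkn1a window at another start site, 29093769, holds no half-site. The stretches below show where the letters lie in the promoters of the gene in question and of 4 targets, with half-sites in capitals, 5′ to 3′ in the direction of the gene. A match is a description of the letters only.
Cdkn1a (chr17:29090729-29090948, plus strand): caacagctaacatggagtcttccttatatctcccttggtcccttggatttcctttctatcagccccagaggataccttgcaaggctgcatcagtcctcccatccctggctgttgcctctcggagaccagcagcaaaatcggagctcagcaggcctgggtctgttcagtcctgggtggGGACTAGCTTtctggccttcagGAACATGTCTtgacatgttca
Mdm2 (chr10:117710789-117711008, minus strand): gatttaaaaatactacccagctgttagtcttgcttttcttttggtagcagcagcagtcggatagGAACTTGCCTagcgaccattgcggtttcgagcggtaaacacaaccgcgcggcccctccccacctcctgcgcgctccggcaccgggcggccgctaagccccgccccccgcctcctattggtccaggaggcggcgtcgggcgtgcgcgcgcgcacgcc
Ccng1 (chr11:40755317-40755536, minus strand): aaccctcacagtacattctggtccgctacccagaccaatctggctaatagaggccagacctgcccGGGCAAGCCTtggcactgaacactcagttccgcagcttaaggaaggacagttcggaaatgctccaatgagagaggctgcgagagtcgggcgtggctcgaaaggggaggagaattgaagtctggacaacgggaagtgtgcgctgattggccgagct
Aen (chr7:78895927-78895956, plus strand): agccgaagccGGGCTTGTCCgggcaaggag
Sesn1 (chr10:41887256-41887285, plus strand): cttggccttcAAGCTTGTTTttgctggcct
The half-site begins 186 bases before the start site in Mdm2, 185 in Ccng1 and 173 in the Sesn1 window shown. In Aen it lies 121 bases before 1 of its start sites and 10 bases after another. No promoter window of Eda2r, Phlda3 or Plk2 held these letters.

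Total counts ranged from 45545182 to 64168308 per sample, and levels are given as CPM, the counts divided by each sample's TMM-adjusted total. Erbb2 was at 145 to 188 CPM in WT and PIK3CA mutant samples and at 1499 to 4632 CPM in samples with the HER2 mutation. Double mutant replicates 2 and 3 stood apart from the other 3 (Erbb2 2751 and 2705 against 1499 to 1649 CPM), and results that rest on them are given with and without them. The epithelial marker Epcam was at 479 to 699 CPM in every sample. The 10 macrophage markers summed to 1071 to 3830 CPM in WT, 609.95 to 773 in PIK3CA mutants, 272 to 450.1 in HER2 mutants and 239 to 425 in double mutants. Of the 10, 9, 7 and 9 fell against WT in PIK3CA, HER2 and double mutants. The exception in PIK3CA mutants was Cd14 (log2 fold change 0.27, edgeR adjusted p 0.729), which made up 573 to 752 CPM of their sum. The other 9 markers summed to 543 to 3338 CPM in WT and 14.04 to 37.0 CPM in PIK3CA mutants. The macrophage markers Adgre1 and Ptprc were at 8.62 to 43.7 CPM in WT and at most 0.354 CPM in PIK3CA and double mutants, with Adgre1 at 0 counts in double mutant replicates 3 and 5 and in HER2 mutant replicate 4, while HER2 mutant replicate 1 had 5.36 CPM of Adgre1. The 8 fibroblast markers summed to 367 to 1975 CPM in WT, 68.3 to 495 in PIK3CA mutants, 35.4 to 650.3 in HER2 mutants and 27.7 to 61.5 in double mutants, where 7 of the 8 fell. Of 6 endothelial markers, 5 of which passed the filter and which summed to 6.86 to 29.3 CPM in WT and 1.0 to 3.36 CPM in the mutants, 1, 1 and 3 fell in PIK3CA, HER2 and double mutants. Of 7 basal markers, 2 fell in HER2 mutants, Krt5 and Myh11 (log2 fold changes -2.89 and -2.81, edgeR adjusted p 0.00592 and 3.44e-04), and the basal sum was 971 CPM in HER2 mutant replicate 1 against 259 to 381 CPM in the other 3. Myh11 also fell in PIK3CA and double mutants, and Krt17 rose in double mutants. Of 6 luminal markers, 1 rose in double mutants, Krt8 by 1.14 (edgeR adjusted p 0.0127). These markers thus move with each comparison with WT below, and their part in the results was not tested. In bulk RNA, fewer cells of a type and less RNA per cell cannot be told apart.

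Trp53 itself (ENSMUSG00000059552, chromosome 11, 69580359 to 69591873 in GRCm38) was measured at 63.2 to 97.3 CPM across the 16 samples. Its level was 76.1, 91.9 and 81.6 CPM in WT, 83.2, 82.3, 79.2 and 76.5 CPM in PIK3CA mutants, 85.8, 63.2, 64.4 and 93.8 CPM in HER2 mutants and 85.5, 67.3, 79.8, 94.8 and 97.3 CPM in double mutants. The 4 ranges overlap. Its log2 fold changes over the 6 pairs of genotypes lay between -0.12 and 0.15, and none passed the threshold (edgeR adjusted p from 0.653 to 0.925). The difference of double mutants from WT was 0.03 on the log2 scale (edgeR adjusted p 0.925, SE 0.15).

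Ccng1, Zmat3, Phlda3, Eda2r and Aen rose against WT in both genotypes with the HER2 mutation. In double mutants against WT, 7 of the 10 genes rose (Mdm2, Ccng1, Zmat3, Phlda3, Eda2r, Aen and Trp53inp1), against a background of 5.03% of all tested genes called higher by the same rule. In HER2 mutants against WT, 5 of 10 rose (Ccng1, Zmat3, Phlda3, Eda2r and Aen), against 4.75% of all genes. In PIK3CA mutants against WT, 1 of 10 rose (Trp53inp1), against 1.49% of all genes. The median log2 fold change of the 10 genes was 1.24, 0.84 and 0.56 in these comparisons, beside 0.01, 0.03 and -0.03 over all tested genes. A call here is an adjusted p under 0.05 in edgeR's quasi-likelihood test, adjusted over all tested genes. All WT samples lay below all samples of the mutant for 8 of the 10 genes in double mutants (9.68% of all genes in that direction), 4 in HER2 mutants (9.81%) and 5 in PIK3CA mutants (13.8%), and above them for 1, Plk2, in PIK3CA mutants (15.7%). The 3 comparisons share the WT samples, and the genes were chosen with earlier results of these data known. With only the compared samples in the fit, 4, 2 and 7 of the 10 genes were called in PIK3CA, HER2 and double mutants against WT. The 4 in PIK3CA mutants were Trp53inp1, Ccng1 and Zmat3, which rose, and Plk2, which fell. Over all genes, these fits called 4136, 541 and 2677, against 1096, 2518 and 2850 in the fit of all 16 samples. Without double mutant replicates 2 and 3, 6 of 10 rose in double mutants, Mdm2 no longer passing. In that fit 910 of all genes rose, against 1220 with both replicates.

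**Figure D1:**
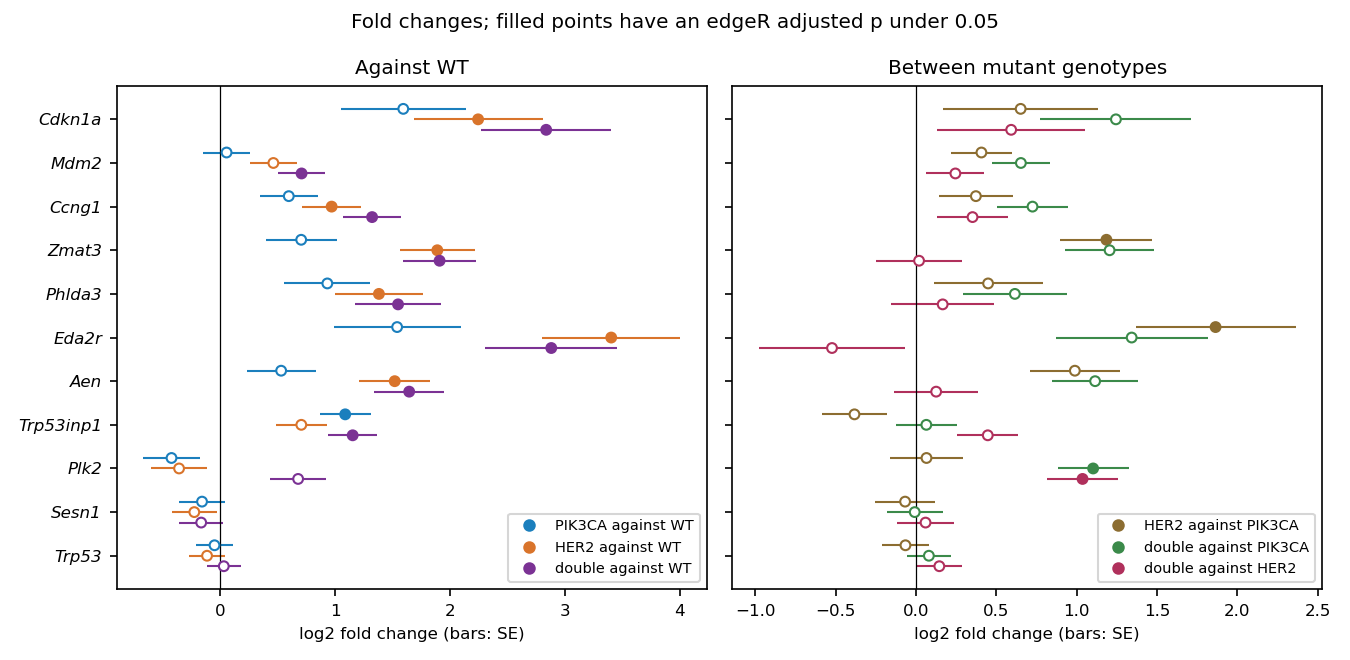
Log2 fold change (x axis) of Cdkn1a, Trp53 and the 9 targets (y axis) against WT on the left and between mutant genotypes on the right, with bars for the SE and filled points for an edgeR adjusted p under 0.05. Trp53 and Sesn1 lie near 0 throughout, Eda2r and Cdkn1a lie farthest from 0 against WT, and Plk2 is called only in the double mutant against each single mutant.

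Zmat3, which encodes an RNA-binding zinc finger protein, and Eda2r, which encodes a receptor of the TNF receptor family, both rose in HER2 and double mutants. Zmat3 (ENSMUSG00000027663, chromosome 3, 32334792 to 32366014) was at 36.9, 52.95 and 39.2 CPM in WT and at 64.9, 66.7, 55.7 and 93.0 CPM in PIK3CA mutants. It was at 252, 90.3, 185 and 109.6 CPM in HER2 mutants and at 112, 176, 217, 148 and 154 CPM in double mutants. All 13 mutant samples lay above all WT samples. On the log2 scale the change from WT came to 1.91 in double mutants (edgeR adjusted p 0.00115, SE 0.316) and 1.89 in HER2 mutants (edgeR adjusted p 0.00273, SE 0.324). In PIK3CA mutants it was 0.70, and this did not pass (edgeR adjusted p 0.255, SE 0.310), except in a fit of these samples alone (edgeR adjusted p 0.0366). Zmat3 lies 31656 bases from Pik3ca on the same chromosome, and shares no exon bases with another gene in the annotation.

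Eda2r (ENSMUSG00000034457, chromosome X, 97333840 to 97377216) had the largest log2 fold change of the 10 genes in each comparison with WT. It was at 0.996, 3.44 and 1.20 CPM in WT and at 5.07, 4.07, 4.43 and 8.22 CPM in PIK3CA mutants. HER2 mutants spread from 4.97 to 39.1 CPM (39.1, 11.9, 23.4 and 4.97 CPM for replicates 1 to 4), whereas the 5 double mutants lay between 12.8 and 14.6 CPM. Every mutant sample was again above every WT sample. The change from WT on the log2 scale reached 3.40 in HER2 mutants (edgeR adjusted p 0.0031, SE 0.599) and 2.88 in double mutants (edgeR adjusted p 0.00407, SE 0.573). In PIK3CA mutants it was 1.54 (edgeR adjusted p 0.148, SE 0.553), which passed without WT replicate 2 (log2 fold change 2.31) and with DESeq2 (1.55, DESeq2 adjusted p 0.0492). In a fit of HER2 mutant and WT samples alone, the call of Eda2r was lost (edgeR adjusted p 0.0698).

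Aen, a nuclease induced by p53 during apoptosis, was at 14.1, 17.9 and 15.3 CPM in WT and at 19.6, 22.7, 19.4 and 29.4 CPM in PIK3CA mutants. It reached 54.2, 42.6, 56.5 and 27.4 CPM in HER2 mutants and 35.1, 71.2, 69.5, 35.2 and 35.5 CPM in double mutants, so double mutant replicates 2 and 3 were at about the same level and above the other 3. Relative to WT, its log2 fold change reached 1.52 in HER2 mutants (edgeR adjusted p 0.00732, SE 0.311) and 1.64 in double mutants (edgeR adjusted p 0.00249, SE 0.304). Without double mutant replicates 2 and 3 the latter was 1.16 (edgeR adjusted p 0.00954).

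Ccng1, which encodes cyclin G1, a partner in the feedback between p53 and MDM2, was at 61.0, 77.4 and 66.9 CPM in WT. It was at 105, 103, 88.2 and 118 CPM in PIK3CA mutants, at 202, 102, 152 and 79.8 CPM in HER2 mutants and at 201, 203, 137, 145 and 169 CPM in double mutants. All mutant samples were above the WT samples, HER2 mutant replicate 4 by the smallest margin. Against WT the fitted log2 fold change came to 1.32 in double mutants (edgeR adjusted p 0.00287, SE 0.250) and 0.97 in HER2 mutants (edgeR adjusted p 0.0258, SE 0.254). The HER2 mutant call was lost without WT replicate 1 or 3 or HER2 mutant replicate 1 or 3 (log2 fold changes down to 0.70, edgeR adjusted p up to 0.110), and in the fit of these samples alone (edgeR adjusted p 0.133).

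Phlda3, whose product holds back the kinase AKT downstream of PIK3CA, was at 20.6, 38.8 and 17.6 CPM in WT. It was at 47.9, 52.2, 33.7 and 61.9 CPM in PIK3CA mutants, at 123, 42.6, 65.8 and 35.5 CPM in HER2 mutants and at 58.3, 75.5, 93.1, 72.3 and 75.9 CPM in double mutants. WT replicate 2 overlapped the lowest samples of both single mutants, and the double mutants lay above WT. Relative to WT, the log2 fold change reached 1.55 in double mutants (edgeR adjusted p 0.0132, SE 0.372) and 1.38 in HER2 mutants (edgeR adjusted p 0.0318, SE 0.381). The call in double mutants was lost without WT replicate 1 or 3 (edgeR adjusted p up to 0.0933). The call in HER2 mutants was lost without WT replicate 1 or 3 or HER2 mutant replicate 1 or 3 (edgeR adjusted p up to 0.162) and in the fit of these samples alone (edgeR adjusted p 0.155).

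Mdm2, the ubiquitin ligase that removes p53, was at 71.2, 78.5 and 74.8 CPM in WT and at 73.5, 70.8, 71.2 and 95.2 CPM in PIK3CA mutants. It was at 122, 89.5, 126 and 75.0 CPM in HER2 mutants and at 98.1, 142, 162, 103 and 106 CPM in double mutants. The 5 double mutants lay above all WT and PIK3CA mutant samples. On the log2 scale the change from WT came to 0.71 in double mutants (edgeR adjusted p 0.0314, SE 0.201) and 0.46 in HER2 mutants, which did not pass (edgeR adjusted p 0.173, SE 0.207). The double mutant call was lost without any 1 of the 3 WT samples or without double mutant replicate 2 or 3 (edgeR adjusted p up to 0.124), and without both of these double mutants the log2 fold change was 0.45 (edgeR adjusted p 0.148).

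**Figure D2:**
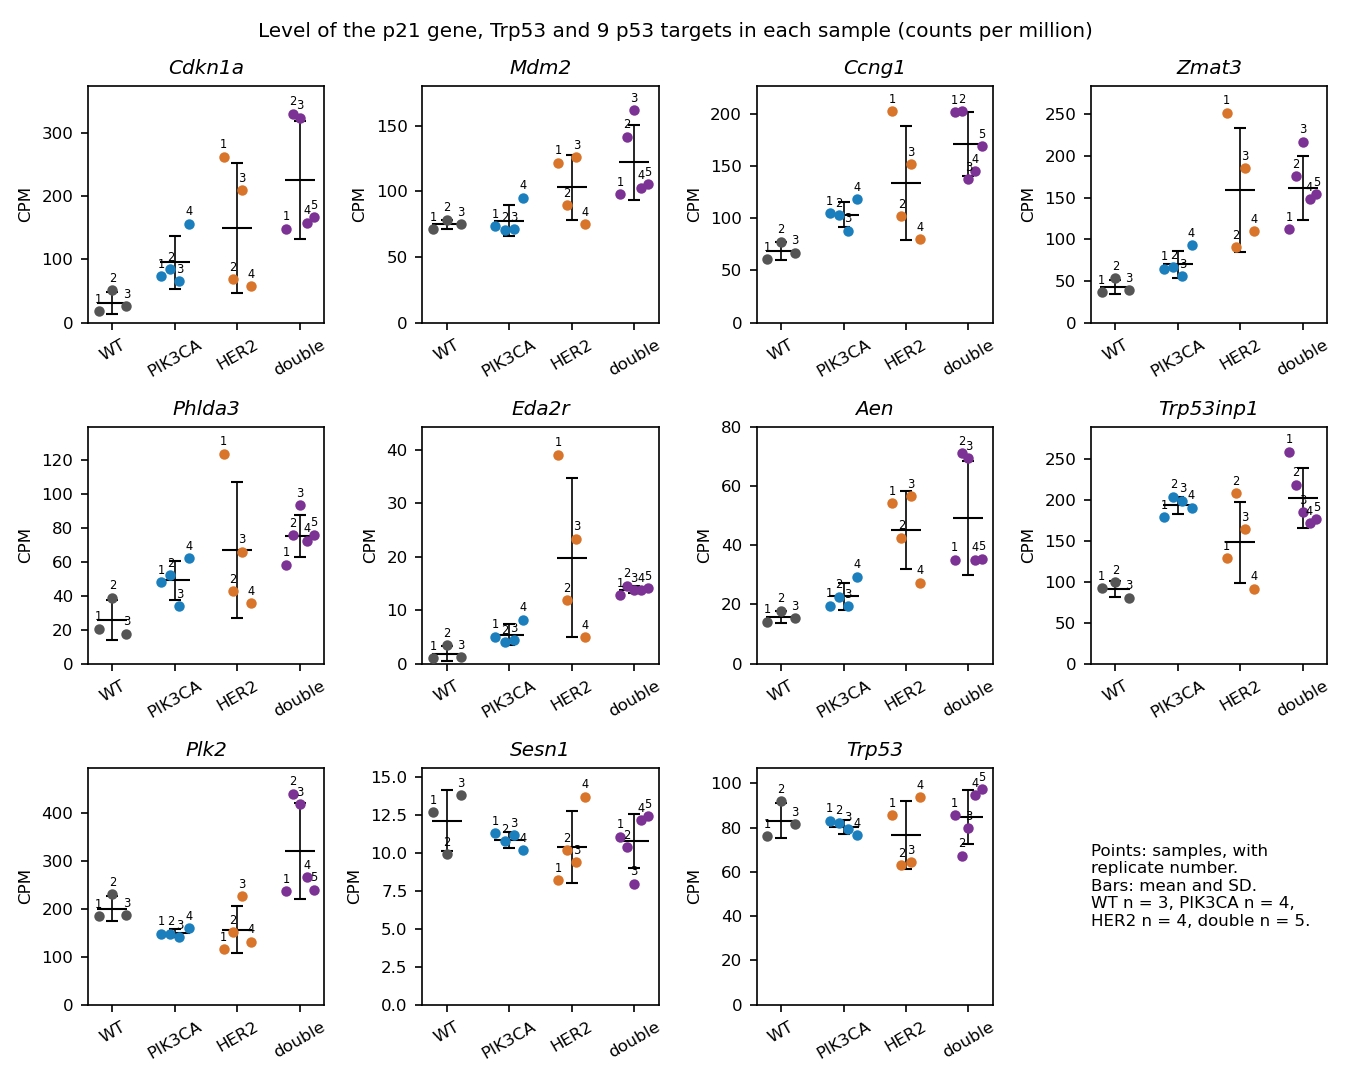
Level in CPM (y axis, linear, from 0) of Cdkn1a, Trp53 and the 9 targets in each of the 16 samples by genotype (x axis), with replicate numbers and bars for the mean and SD. HER2 mutant replicates 1 and 3 are above replicates 2 and 4 for Cdkn1a, Mdm2, Ccng1, Zmat3, Phlda3, Eda2r and Aen, and double mutant replicates 2 and 3 stand above the other 3 for Cdkn1a, Mdm2, Zmat3, Aen and Plk2.

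Trp53inp1, Plk2 and Sesn1 each had a pattern of their own. Trp53inp1, a stress-induced nuclear protein that acts with p53 and in autophagy, was at 92.5, 99.5 and 80.7 CPM in WT and at 179, 204, 199 and 190.5 CPM in PIK3CA mutants. It was at 129, 208, 164 and 91.7 CPM in HER2 mutants and at 259, 218, 185, 171 and 177 CPM in double mutants. All samples with the PIK3CA mutation were above all WT samples, and HER2 mutants overlapped WT. The change from WT on the log2 scale reached 1.09 in PIK3CA mutants (edgeR adjusted p 0.00932, SE 0.222), 1.15 in double mutants (edgeR adjusted p 0.0027, SE 0.216) and 0.70 in HER2 mutants (edgeR adjusted p 0.0520, SE 0.219). The PIK3CA mutant call was lost without WT replicate 3 (edgeR adjusted p 0.0771). The HER2 mutant value passed without HER2 mutant replicate 1 or 4 and with DESeq2 (DESeq2 adjusted p 0.0243). No difference of Trp53inp1 between mutant genotypes passed (HER2 against PIK3CA mutants -0.38, edgeR adjusted p 0.315, SE 0.200).

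Plk2, a polo-like kinase of the stress response, was at 185, 230.3 and 187 CPM in WT, 148, 148, 141 and 160.1 CPM in PIK3CA mutants and 116, 152, 226 and 131 CPM in HER2 mutants. In double mutants it was at 237, 441, 419, 267 and 240.2 CPM, with replicates 2 and 3 the highest. Both single mutants had lower means than WT and the double mutants a higher one. The log2 fold changes against WT were -0.43, -0.36 and 0.68 in PIK3CA, HER2 and double mutants, and none of them passed (edgeR adjusted p 0.413, 0.383 and 0.081). The double mutant value passed with DESeq2 (DESeq2 adjusted p 0.0472), and the PIK3CA mutant value passed, as lower, in a fit of PIK3CA mutant and WT samples alone (edgeR adjusted p 0.0181). Against the single mutants Plk2 rose in double mutants, by 1.04 over HER2 mutants (edgeR adjusted p 0.0239, SE 0.221) and by 1.10 over PIK3CA mutants (edgeR adjusted p 0.0379, SE 0.221). The interaction, the double mutant against the sum of both single changes, was 1.46 on the log2 scale (edgeR adjusted p 0.0452, SE 0.328), and Plk2 was the 1 gene of the 10 called in it, against 1.06% of all genes.

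These Plk2 calls rest on few samples. Without double mutant replicates 2 and 3, the log2 difference was 0.67 from HER2 mutants (edgeR adjusted p 0.0570) and 0.73 from PIK3CA mutants (edgeR adjusted p 0.0830), while the interaction of 1.09 still passed (edgeR adjusted p 0.0354). The call against HER2 mutants was lost without HER2 mutant replicate 4 (edgeR adjusted p 0.0502), and that against PIK3CA mutants without any 1 of the 4 PIK3CA mutants or without double mutant replicate 2, 3 or 4 (edgeR adjusted p up to 0.161). The interaction call was lost without any 1 of the 3 WT or 4 PIK3CA mutant samples, HER2 mutant replicate 1, 2 or 4, or double mutant replicate 3 or 4 (edgeR adjusted p up to 0.114).

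Sesn1, which encodes sestrin 1, an inhibitor of growth signalling through mTORC1, was at 9.91 to 13.8 CPM in WT, 10.2 to 11.3 CPM in PIK3CA mutants, 8.20 to 13.7 CPM in HER2 mutants and 7.99 to 12.4 CPM in double mutants. The groups overlap. Its log2 fold changes lay between -0.23 and 0.06 over the 6 pairs, with edgeR adjusted p from 0.51 to 0.991. Neither Trp53 nor Sesn1 was called in any alternative fit that was run.

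Cdkn1a (ENSMUSG00000023067, chromosome 17, 29090976 to 29100727) rose in HER2 and double mutants. Its fitted fold change was above that of each of the 10 genes other than Eda2r, although the test of the ratios described below did not separate it from Ccng1, Zmat3, Phlda3, Eda2r and Aen in HER2 mutants or from Zmat3 and Eda2r in double mutants. It was at 17.8, 51.4 and 25.6 CPM in WT and at 73.7, 85.1, 65.7 and 157 CPM in PIK3CA mutants. It was at 263, 68.8, 209 and 57.7 CPM in HER2 mutants and at 148, 331, 324, 158 and 167 CPM in double mutants. Each mutant sample exceeded each WT sample. Against WT the fitted log2 fold change came to 2.24 in HER2 mutants (edgeR adjusted p 0.0204, SE 0.562), 2.84 in double mutants (edgeR adjusted p 0.00418, SE 0.567) and 1.59 in PIK3CA mutants, which did not pass (edgeR adjusted p 0.125, SE 0.546). The log2 fold change of Eda2r, at 3.40 in HER2 and 2.88 in double mutants, was the 1 larger value of the set in each.

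The HER2 mutant call of Cdkn1a was lost without WT replicate 1 or 3 (edgeR adjusted p up to 0.106) and in the fit of these samples alone (edgeR adjusted p 0.105), and the PIK3CA mutant value passed with DESeq2 (DESeq2 adjusted p 0.0364) and in a fit of PIK3CA mutant and WT samples alone (edgeR adjusted p 0.0320). Without double mutant replicates 2 and 3 the double mutant value was 2.32 (edgeR adjusted p 0.0220). Cdkn1a shares 273 exon bases, 7.68% of its exon length, with AC167363.2 on the opposite strand. Whether counting used strand is not given in the sources used here, so reads in that stretch cannot be assigned. None of the 10 other genes shares exon bases with another gene.

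Whether Cdkn1a and a target rose by the same amount was tested as the change of their ratio, log2 CPM of the gene minus log2 CPM of Cdkn1a, with limma. In double mutants against WT, 8 of the 10 ratios fell, against 96.2% of all tested genes, so nearly every gene lost ground to Cdkn1a and the count says little of the 10. The ratio of Eda2r changed by 0.19 (limma adjusted p 0.768, SE 0.638) and that of Zmat3 by -0.99 (limma adjusted p 0.0923, SE 0.577), and these 2 did not pass. The ratios that fell included Trp53 (-2.86, limma adjusted p 3.34e-05, SE 0.613), Plk2 (-2.25, limma adjusted p 2.79e-04, SE 0.577), Mdm2 (-2.20, limma adjusted p 4.32e-04, SE 0.586) and Ccng1 (-1.57, limma adjusted p 0.00908, SE 0.583).

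In HER2 mutants against WT, 5 of 10 ratios to Cdkn1a fell (Trp53, Mdm2, Sesn1, Plk2 and Trp53inp1), against 80.2% of all genes. The 5 that did not pass (Ccng1, Zmat3, Phlda3, Eda2r and Aen) are the 5 genes called in that comparison. Both tests use the same values, and a gene with a larger rise has a ratio that falls less, so this match is no separate evidence. In PIK3CA mutants against WT, 4 of 10 fell (Trp53, Mdm2, Sesn1 and Plk2), against 59.8% of all genes. All ratios share the 1 measurement of Cdkn1a, so the spread borrowed across genes in this test is not independent. With each gene's own spread, an alternative added after the data had been seen, 9 of 10 ratios fell in double mutants (94.6% of all genes), with Zmat3 added (limma adjusted p 0.00672) and Eda2r not passing (limma adjusted p 0.546). In HER2 mutants the ratio of Eda2r then rose, by 1.13 (limma adjusted p 0.0134), and those of Ccng1 and Phlda3 fell (-1.20 and -0.79, limma adjusted p 0.0263 and 0.0379), so that only Zmat3 and Aen did not pass.

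Between the mutant genotypes, none of which is normal tissue, fewer of these genes differed. In HER2 against PIK3CA mutants 2 of 10 rose, against 2.21% of all genes, namely Zmat3 by 1.19 (edgeR adjusted p 0.0294, SE 0.286) and Eda2r by 1.86 (edgeR adjusted p 0.0454, SE 0.498). In both genes the lowest HER2 mutant sample overlapped the highest PIK3CA mutant sample. Zmat3 lost the call without PIK3CA mutant replicate 1, 2 or 3 or HER2 mutant replicate 1 or 3, and Eda2r without any 1 PIK3CA mutant or HER2 mutant replicate 1 or 3. Aen just missed the threshold at 0.99 (edgeR adjusted p 0.0545, SE 0.278), and passed with DESeq2 and without HER2 mutant replicate 4.

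In double against PIK3CA mutants only Plk2 passed, 1 of 10 against 0.309% of all genes higher. All samples of the double mutant lay above all PIK3CA mutants for 6 of the 10 genes (Mdm2, Ccng1, Zmat3, Eda2r, Aen and Plk2), which 3.42% of all genes did in that direction. Zmat3 had a log2 difference of 1.20 (edgeR adjusted p 0.0598, SE 0.276) and Aen one of 1.11 (edgeR adjusted p 0.0736, SE 0.268). With DESeq2 4 of 10 passed, Mdm2, Zmat3 and Aen beside Plk2, and in a fit of these samples alone 4 passed, Ccng1, Zmat3 and Eda2r beside Plk2. All genes called higher also increased in number, from 75 in the edgeR fit of all samples to 334 with DESeq2 and 163 in the fit of these samples alone. In double against HER2 mutants, 1 of 10 rose (Plk2), against 1.03% of all genes, and the differences of the other 9 lay between -0.52 (Eda2r) and 0.45 (Trp53inp1). Cdkn1a passed in none of these 3 comparisons (log2 differences 0.65 for HER2 against PIK3CA, 1.24 for double against PIK3CA and 0.59 for double against HER2 mutants, edgeR adjusted p 0.505, 0.280 and 0.561).

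Samples of 1 genotype differed in Cdkn1a, most of all from 57.7 to 263 CPM in HER2 mutants, and the target genes varied beside it. HER2 mutant replicates 1 and 3 were above replicates 2 and 4 for Cdkn1a, Mdm2, Ccng1, Zmat3, Phlda3, Eda2r and Aen. Replicates 1 and 3 also had the lower fibroblast marker sums, 39.0 and 35.4 CPM against 331 and 650.3 CPM. PIK3CA mutant replicate 4 was the highest of its genotype for the same 7 genes, with a fibroblast marker sum of 495 CPM against 68.3 to 186 CPM in the other 3. WT replicate 2 was the highest of WT for these 7, with 1975 CPM against 367 and 1754 CPM. The part of other cell types in these differences was not tested. In double mutants, replicates 2 and 3, which have the higher Erbb2, were the highest for Cdkn1a, Mdm2, Zmat3, Aen and Plk2, while Eda2r hardly varied.

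**Figure D3:**
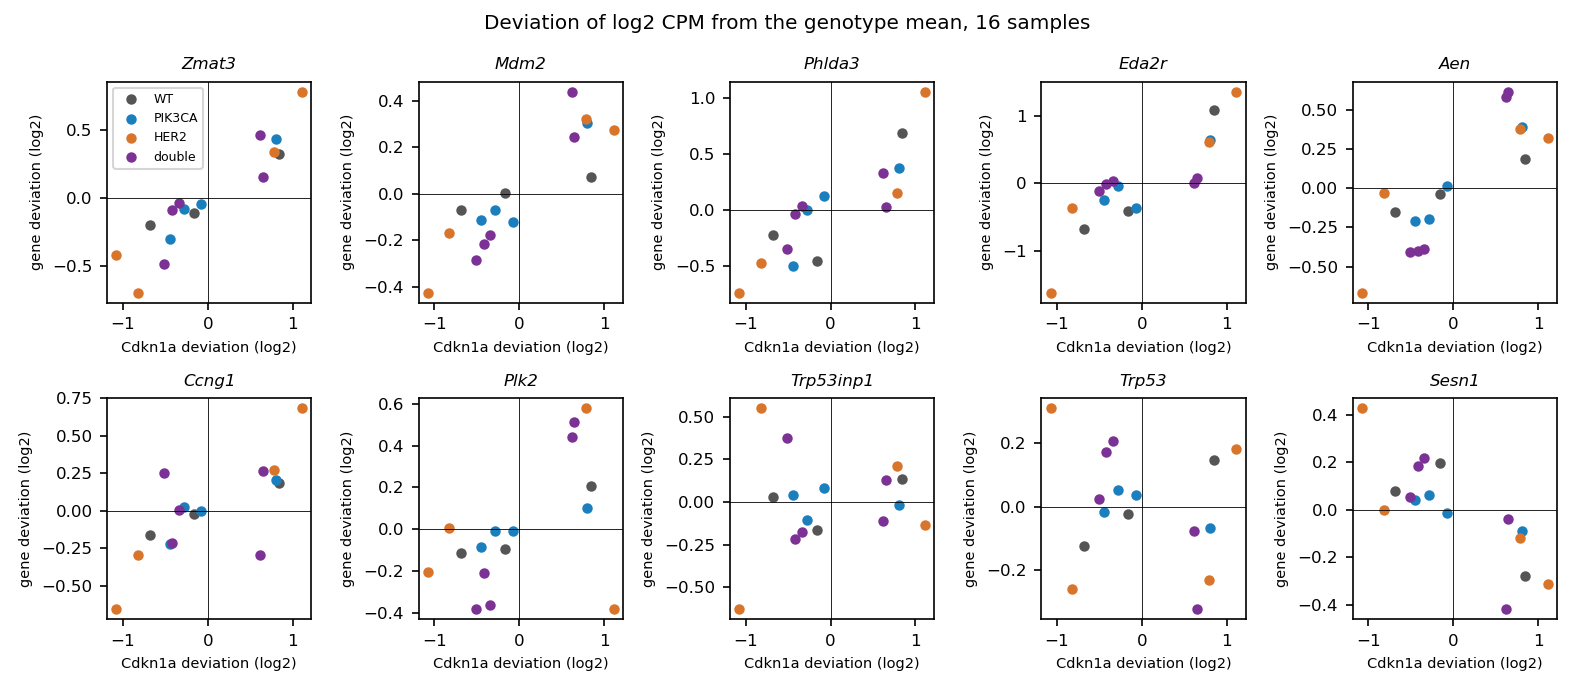
Deviation of log2 CPM from the genotype mean for Cdkn1a (x axis) and each of the 10 genes (y axis) in the 16 samples, coloured by genotype. The samples form 2 clusters on the x axis, and Zmat3, Mdm2, Phlda3, Eda2r and Aen are higher at the right, Sesn1 lower.

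Taken as deviations of log2 CPM from the genotype mean, the samples formed 2 clusters on Cdkn1a, 10 samples from -1.08 to -0.08 and 6 samples from 0.62 to 1.11, so a correlation over all 16 samples is not given. The split was made at the largest gap in the Cdkn1a deviations, after the data had been seen. Within a cluster, samples were permuted across genotypes, whereas the planned correlation permuted them within genotype. The p-values within clusters thus treat deviations of all genotypes as interchangeable, although their spread differs. For Eda2r they lay from -1.61 to 1.36 in HER2 mutants and from -0.11 to 0.08 in double mutants. These p-values are therefore approximate, and exact below means only that all orders were taken. Within the 10 samples, r was positive for 8 of the 10 genes, and the largest were 0.73 for Ccng1 (rho 0.59), 0.73 for Zmat3 (rho 0.79), 0.69 for Eda2r (rho 0.33), 0.69 for Phlda3 (rho 0.70) and 0.67 for Mdm2 (rho 0.53). These 5 had unadjusted permutation p of 0.0164, 0.0163, 0.0269, 0.0263 and 0.0347 for r and of 0.0816, 0.00907, 0.353, 0.0313 and 0.123 for rho. After adjustment over 24251 genes none passed (permutation, adjusted p 0.999 for r), and 4.63% of all genes had an unadjusted p under 0.05.

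Within the 6 samples the genes split. Eda2r had r = 0.94 (rho 1, exact permutation p 0.00139 for r and 0.00278 for rho) and Phlda3 r = 0.87 (rho 0.83, exact permutation p 0.0222 and 0.0583), whereas Plk2 had r = -0.89 (rho -0.71, exact permutation p 0.0333 and 0.136) and Aen r = -0.70 (rho -0.83, exact permutation p 0.108 and 0.0583). None passed after adjustment over all genes (exact permutation adjusted p for r 0.112, 0.214, 0.231 and 0.350), and 18.4% of all genes had an unadjusted p under 0.05 in these 6 samples. In HER2 mutant replicate 1, the sample with the highest Cdkn1a deviation of the 6, Eda2r and Phlda3 had their highest deviation and Plk2 its lowest. Trp53 showed no such relation in the 10 samples (r = -0.03, rho 0.12, permutation p 0.929 and 0.760). The genes whose deviations over the 16 samples were most like those of Trp53 were Lmf1, Ttc41 and Slc37a3, each with r = 0.96, among 11740 genes compared.

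Set per kilobase of exon, so that genes can be compared with each other, the order changed between genotypes. In WT, Cdkn1a held rank 7 of the 11 genes with 8.89 ± 4.94 CPM per kilobase (SD, n = 3), below Trp53 with 20.6 ± 1.99, and Plk2 was the highest with 44.7 ± 5.71. In double mutants Cdkn1a held rank 2 with 63.5 ± 26.2 CPM per kilobase (SD, n = 5), and Trp53 held rank 7 with 21 ± 3.0. The SD of Cdkn1a spans the means of Plk2 with 71.5 ± 22.4 and of Ccng1 with 48.7 ± 8.69. Eda2r was the lowest gene in WT with 0.319 ± 0.230 CPM per kilobase and again in double mutants with 2.35 ± 0.114.

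Other genes of the pathway were counted over whole lists, which were chosen with earlier results of these data known. Of 14 regulators and relatives of p53, 2 rose and 3 fell in double mutants against WT (5.03% of all genes rose and 6.72% fell), and the same 5 genes passed without double mutant replicates 2 and 3. Cdkn2a, whose ARF product blocks MDM2, rose by 2.15 (edgeR adjusted p 0.0113, SE 0.504), and Chek1, a checkpoint kinase, rose by 1.26 (edgeR adjusted p 7.58e-04, SE 0.196). Hipk2, a kinase that phosphorylates p53, fell by 1.22 (edgeR adjusted p 6.04e-04), and Sirt1, which deacetylates it, fell by 0.92 (edgeR adjusted p 0.00427). In HER2 mutants against WT 3 rose and 2 fell (4.75% and 5.63% of all genes), among them Trp73, a relative of Trp53, which fell by 3.07 (edgeR adjusted p 0.00529), and in PIK3CA mutants only Hipk2 passed, with a fall (-1.01, edgeR adjusted p 0.00596), against 3.03% of all genes lower. The third called gene to fall in double mutants was Ep300, a p53 coactivator (-0.48, edgeR adjusted p 0.0165).

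Of 4 other arrest targets, 2 rose and 1 fell in double mutants against WT (5.03% and 6.72% of all genes). Gtse1, a p53-binding protein of the dividing cell, rose by 2.94 (edgeR adjusted p 0.00832, SE 0.657), and Btg2, an antiproliferative gene, by 1.19 (edgeR adjusted p 0.0431, SE 0.361). Double mutant replicates 2 and 3 were the highest for both, and without them Gtse1 rose by 2.32 (edgeR adjusted p 0.0407) while Btg2 did not pass (0.53, edgeR adjusted p 0.233). Gadd45a, which acts in DNA damage arrest, fell against WT in PIK3CA mutants by 1.60 (edgeR adjusted p 0.0084), in HER2 mutants by 1.4 (edgeR adjusted p 0.0134) and in double mutants by 1.04 (edgeR adjusted p 0.0347). It was at 38.4, 31.4 and 51.0 CPM in WT and at 10.0 to 30.5 CPM in the 13 mutant samples, so no mutant sample reached the WT range.

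Of 9 cell death targets, 3 rose in double mutants and 2 in HER2 mutants against WT (5.03% and 4.75% of all genes). Bbc3, which encodes the death activator PUMA, rose by 1.23 and 0.77 (edgeR adjusted p 0.00269 and 0.0476), Tnfrsf10b, a death receptor, by 1.21 and 1.32 (edgeR adjusted p 0.00452 and 0.00493), and Apaf1 by 0.75 in double mutants (edgeR adjusted p 0.0375). Bbc3 and Tnfrsf10b still passed without double mutant replicates 2 and 3, and Apaf1 did not (0.47, edgeR adjusted p 0.155). Of 10 targets in metabolism and stress, 4 rose in double and 4 in HER2 mutants, and 1 in PIK3CA mutants (5.03%, 4.75% and 1.49% of all genes). Ddit4, an inhibitor of mTORC1, passed in all 3 comparisons (1.43, 1.28 and 2.21 in PIK3CA, HER2 and double mutants, edgeR adjusted p 0.0387, 0.0385 and 0.00141), and Sesn2, the relative of Sesn1, rose by 1.35 in double mutants (edgeR adjusted p 6.77e-04). With double mutant replicates 2 and 3 left out, these values were 1.60 for Ddit4 and 1.37 for Sesn2 (edgeR adjusted p 0.00301 and 0.00398), and Slc19a2, a thiamine transporter, was the 1 gene of the 4 that no longer passed (0.72, edgeR adjusted p 0.161). Of 5 DNA repair targets, 1 rose in double mutants (5.03% of all genes), Ercc5 by 0.70 (edgeR adjusted p 0.0154). Without the same 2 samples Ercc5 did not pass (0.63, edgeR adjusted p 0.0587), and Xpc passed with a lower level (-0.58, edgeR adjusted p 0.0231).

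**Figure D4:**
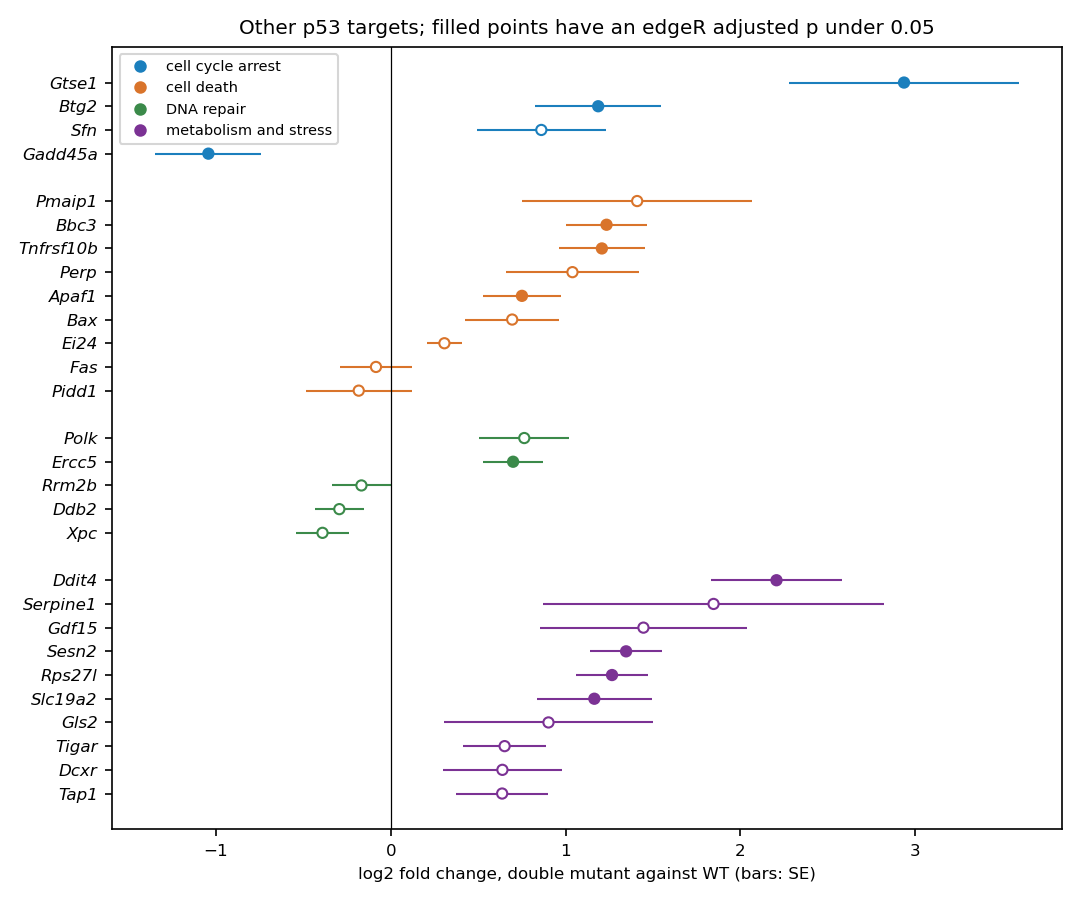
Log2 fold change of double mutants against WT (x axis) for 28 other p53 targets grouped by role (y axis), with bars for the SE and filled points for an edgeR adjusted p under 0.05. Gtse1 and Ddit4 lie farthest to the right, and Gadd45a is the 1 called gene below 0.

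A list of 12 cell cycle genes that p53 and p21 are known to lower was measured beside them. In PIK3CA, HER2 and double mutants against WT, 2, 5 and 4 of the 12 passed, each with a higher level (1.49%, 4.75% and 5.03% of all genes). The list's median log2 fold change was 1.11, 1.46 and 1.39, beside -0.03, 0.03 and 0.01 over all genes. The rise was not uniform across samples. The 12 genes summed to 30.7, 68.6 and 95.6 CPM in WT and to 428, 76.3, 78.6 and 191 CPM in HER2 mutant replicates 1 to 4. HER2 mutant replicates 2 and 3, PIK3CA mutant replicate 3 (79.6 CPM) and double mutant replicate 3 (89.8 CPM) thus lay within the WT range. All other mutant samples lay above it. Mki67 was the largest part of the sum, with 271.3 of 428 CPM in HER2 mutant replicate 1. In the mutant samples within the WT range, Cdc25c was at 1.42 to 2.34 CPM against at most 0.86 CPM in WT. Cdc20 was there at 4.93 to 8.77 CPM against at most 4.27 CPM in WT. No other gene of the list exceeded all WT samples in each of them, and Mki67, Bub1 and Foxm1 stayed within their WT ranges. In double mutants 5 of the 12 passed without replicates 2 and 3, Ccnb2 being added. Cdc25c, a mitosis phosphatase, rose by 1.71, 1.97 and 2.11 (edgeR adjusted p 0.0341, 0.0115 and 0.00469) and Cdc20, a mitosis activator, by 1.28, 1.29 and 1.66 (edgeR adjusted p 0.044, 0.027 and 0.00465). Cdk1, the mitotic kinase, rose by 1.38 in HER2 and 1.78 in double mutants (edgeR adjusted p 0.0213 and 0.00351). In the comparisons between mutants the lowest edgeR adjusted p of the list was 0.118 (Mybl2, HER2 against PIK3CA mutants).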

How the data were processed

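RNA sequencing of 16 mouse mammary organoid samples was used. Column-purified total RNA went into libraries made with a SMARTer mRNA-seq kit, per the labels' protocols. The authors deposited whole-number read counts per Ensembl gene, and the submitters' processing notes name bcl2fastq 2.20, STAR 2.0.4b, Subread, featureCounts 1.4.5, DESeq2 1.33.5 and mm10. The annotation and the use of strand in counting are not given in the sources used here. The authors also deposited a normalized signal table, in which each value equals the count divided by a DESeq2 size factor (largest relative difference 5.49e-10), and it was used for 1 alternative. Of 55774 entries, 287 identical repeats were dropped.

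Counts were tested with edgeR 4.0.16 in R 4.3.3 (filterByExpr, TMM, quasi-likelihood test, two-sided) in 1 joint fit of the 16 samples on genotype alone. Benjamini-Hochberg adjustment ran over all 24252 tested genes, and adjusted p under 0.05 counted as a call. SE is the absolute log2 fold change divided by the square root of F. Ratios to Cdkn1a were tested with limma 3.58.1 on log2 CPM (prior count 2). The alternative with no moderation used an ordinary t-test with each gene's own spread from the same linear fit. Correlations used deviations from the genotype mean, with 100000 permutations for 10 samples or more and all orders for 6 samples. Permutation was within genotype in the planned correlation and across genotypes within the 2 clusters. Alternatives were other scalings, DESeq2 1.42.0, no filter on low counts, limma on the deposited normalized values (pseudocount 1), only the compared groups, the replicate number as a block, and fits without each replicate in turn. Same-numbered samples of different genotypes did not deviate together in every pair (correlations from -0.163 to 0.273), so the numbers were not taken as pairs.

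The genes and lists were chosen with earlier results of these data known. Of the other lists, genes are named where an adjusted p passed, up to the 2 largest changes in each direction per list and comparison. Any further gene was picked once its values had been seen. A total of 45545182 to 64168308 counts per sample puts 3 counts at 0.0468 to 0.0659 CPM. Counting intervals would cover counting error only and are not given. Positions and exon lengths are from GENCODE M21 (GRCm38). The scripts were tested on simulated data with known changes.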

Additional observations from a re-analysis of the deposited data

Results flagged for a closer look

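Mdm2 in PIK3CA mutant replicate 4 was far from the other 3 samples of its genotype, at 95.2 CPM against 70.8 to 73.5 CPM. Of 33 sets of values looked at, 1 stood out in this way, and chance gives about 1 in 20. The same sample had the highest Cdkn1a, Ccng1, Zmat3, Phlda3, Eda2r and Aen of its genotype. Plk2 differed between the effects of the mutations: the double mutant lay 1.46 above the sum of both single changes on the log2 scale (SE 0.328, edgeR adjusted p 0.0452), with double mutant levels of 237 to 441 CPM against 116 to 226 CPM in HER2 mutants and 141 to 160.1 CPM in PIK3CA mutants.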

How the results depend on the processing

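No called value of the 10 genes or Cdkn1a changed sign in any alternative run. Genes called of the 10 in other settings were, for the interaction, 0 with upper-quartile scaling, for PIK3CA mutants against WT, 2 with DESeq2, and for double against PIK3CA mutants, 4 with DESeq2 and 2 with no filter on low counts. In HER2 against PIK3CA mutants, 1 was called by limma on the normalized values. Over all genes, these settings called 244, 1869, 661, 125 and 1123, in the order given. The edgeR fit described above called 257 for the interaction, 1096 for PIK3CA mutants against WT, 163 for double against PIK3CA and 1069 for HER2 against PIK3CA mutants. With only the compared groups in the fit, 4 of the 10 genes were called for PIK3CA mutants against WT, 2 for HER2 mutants against WT, 0 for double against HER2 mutants, 4 for double against PIK3CA mutants and 0 for HER2 against PIK3CA mutants. Over all genes, these fits called 4136, 541, 37, 364 and 534, against 1096, 2518, 606, 163 and 1069 in the fit of all 16 samples. Without double mutant replicates 2 and 3, 0 of the 10 were called for double against HER2 and 0 for double against PIK3CA mutants. Over all genes, 1125 and 213 were called there, against 606 and 163 with both replicates. In the same setting 1 of the other arrest targets was higher against WT, and of the DNA repair targets 0 were higher and 1 lower. The cause of these changes was not tested, and the last 2 settings also hold fewer samples. Upper-quartile scaling also moved the split of all calls in double against HER2 mutants from 249 higher and 357 lower to 191 and 441.

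With the replicate number as a block, the calls were 0 of 10 for double against PIK3CA mutants, 0 for HER2 against PIK3CA mutants and 0 for the interaction. Over all genes, 19, 552 and 35 were called with the block, against 163, 1069 and 257 without it. With the block, 1 ratio to Cdkn1a fell in PIK3CA mutants, and the share over all genes was not counted there. In HER2 mutants against WT, Cdkn1a (2.35, edgeR adjusted p 0.0556) and Phlda3 (edgeR adjusted p 0.0784) then missed the threshold and Trp53inp1 passed (edgeR adjusted p 0.0422), and in double mutants against WT Plk2 passed (edgeR adjusted p 0.0454). The log2 fold change of Trp53 in double mutants against WT was then -0.088. Same-numbered samples did not deviate together in every pair of groups (correlations from -0.163 to 0.273). Between HER2 and double mutants the same-numbered pairs were all positive (0.071 to 0.273, mean 0.157, against a mean of -0.041 for other pairs). Whether the numbers mark a shared batch was not tested.

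With no moderation of the spread, 2 ratios to Cdkn1a changed in PIK3CA mutants and 8 in HER2 mutants, where that of Eda2r rose. Over all genes, 13.1% and 76.8% of the ratios fell in these comparisons. The planned correlation with Cdkn1a over all 16 samples passed for 6 of the 10 genes, 5 with a positive r and Sesn1 with a negative one (0.54% of all genes positive and 0.68% negative). It passed for 2 without the 2 samples farthest from the median, for 2 in mutant samples only and for 0 without double mutant replicates 2 and 3. In this last setting the r of Trp53 changed sign to 0.046. The 6 genes kept the sign of r in all 3 settings. These settings hold fewer samples and their share over all genes was not counted, so the lower counts do not measure a weaker relation. The correlation without double mutant replicates 2 and 3, the counts over the other gene lists in that setting, the fit with no moderation and the correlations within 2 clusters were added after the data had been seen.

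Without 1 replicate in turn, calls ranged from 0 to 2 (PIK3CA mutants), 3 to 6 (HER2 mutants) and 5 to 7 (double mutants) against WT, 0 to 1 for the interaction, 0 to 1 for double against PIK3CA, 0 to 3 for HER2 against PIK3CA and 0 to 1 for double against HER2 mutants. Over all genes, the same fits called 396 to 1043, 733 to 2693 and 1173 to 2961 against WT, and 54 to 382 for the interaction. They called 17 to 143 for double against PIK3CA and 427 to 1166 for HER2 against PIK3CA mutants. For double against HER2 mutants they called 256 to 975. Changed ratios to Cdkn1a ranged from 0 to 5, 3 to 6 and 5 to 8, and their share over all genes was not counted there.

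Some log2 values that were not called crossed 0. Upper-quartile scaling gave -0.0015 for Sesn1 and -0.017 for Zmat3 in double against HER2 mutants. Without double mutant replicates 2 and 3, Mdm2 came to -0.011, Zmat3 to -0.21 and Aen to -0.36 against HER2 mutants, Sesn1 to 0.13 against PIK3CA mutants and Mdm2 to -0.066 in the interaction. Without 1 replicate in turn, the ranges were -0.11 to 0.028 for Trp53 and -0.059 to 0.14 for Mdm2 in PIK3CA mutants against WT, -0.031 to 0.11 for Trp53 in double mutants against WT, and -0.43 to 0.025 for Ccng1 in the interaction. They were -0.063 to 0.084 for Sesn1 and -0.040 to 0.12 for Trp53inp1 in double against PIK3CA mutants. In HER2 against PIK3CA mutants they were -0.18 to 0.018 for Trp53, -0.23 to 0.030 for Sesn1, -0.030 to 0.66 for Phlda3 and -0.17 to 0.19 for Plk2. In double against HER2 mutants they were -0.038 to 0.22 for Sesn1, -0.18 to 0.33 for Zmat3, -0.044 to 0.65 for Phlda3, -0.84 to 0.043 for Eda2r and -0.053 to 0.25 for Aen. The ratio of Eda2r to Cdkn1a in PIK3CA mutants against WT ranged from -0.090 to 0.15.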
